A study of Rattus norvegicus with 91 samples.

Results

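The HAD2 and LAD2 rats are the second of 2 replicate pairs of lines that were selectively bred from one outbred stock, HAD2 for high and LAD2 for low alcohol consumption. This comparison rests on 17 of the 91 arrays of the series, 8 from HAD2 rats (labelled alcohol preferring, Pr) and 9 from LAD2 rats (labelled non-preferring, NPr). They were chosen by the line pair in the sample titles, with 1 array and 1 numbered animal per title. All 17 arrays measured total RNA of the ventral tegmental area, and the labels name no treatment, age or sex. The replicate selection, HAD1 (8 arrays) and LAD1 (10 arrays), was used only where a difference between the pairs was tested. Rats of 1 line share a breeding history, so the error given with each value covers animals of these 2 lines and not the spread between independently bred lines.

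The ventral tegmental area is the midbrain region whose dopamine neurons project to the nucleus accumbens and prefrontal cortex, and it also holds GABA and glutamate neurons, glia and vessels. Its dopamine neurons fire more in the presence of ethanol, and the region is one of the sites where rats will administer ethanol to themselves. A difference between HAD2 and LAD2 is a property of these lines and is not by itself tied to drinking.

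Of 20826 probe sets with 1 gene symbol, 778 differed between HAD2 and LAD2 (3.74%, limma, Benjamini-Hochberg adjusted p under 0.05). HAD2 was higher at 427 of them (2.05%) and lower at 351 (1.69%). A probe set is a group of short array probes that report on one transcript region, and its value is a log2 signal, so that a difference of 1 is a 2-fold difference. At an unadjusted p under 0.05 there were 2684 probe sets. The difference was at least 1.5-fold at 172 called probe sets, 86 in each direction, and at least 2-fold at 63 (0.303%), 28 higher and 35 lower in HAD2. The median size of a called difference was 0.38. The signals of the 2 lines did not overlap at all at 254 probe sets, 143 higher in HAD2 (0.687%) and 111 lower (0.533%), and 252 of these were called. Counted by gene, 711 of 14217 genes had a called probe set (5.00%), 402 genes with one called higher (2.83%) and 326 with one called lower (2.29%). HAD2 was higher at 54.9% of calls here. The split between directions was close to even under other scalings, at 50% after quantile normalization and at 48.4% after centring each array. It leaned further to HAD2 with all 91 arrays in 1 fit (57.9%) and without the animal HAD2 5 (58.4%). Over all probe sets the median difference was 0.0029 and the median standard error 0.0649.

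**Figure D1:**
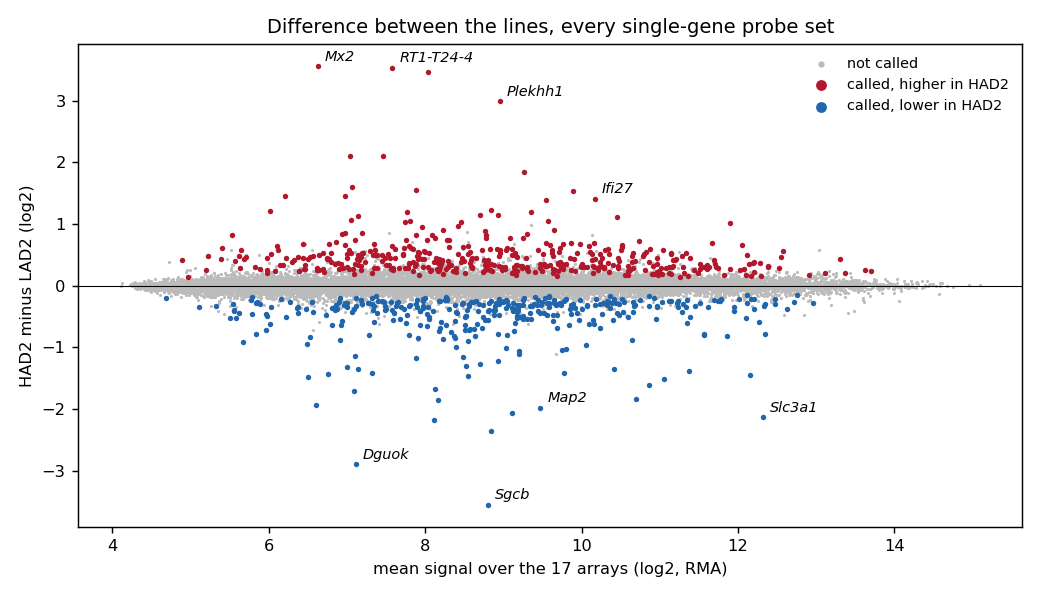
Each point is 1 of 20826 probe sets, with the mean log2 signal over the 17 arrays on the x axis and the HAD2 minus LAD2 difference (log2) on the y axis. Called probe sets (red higher in HAD2, 427, and blue lower, 351) lie on both sides of 0 at all signal levels, and the largest differences reach 3.56 (Mx2) and -3.55 (Sgcb).

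The tissue was well marked by dopamine neuron genes. Th, tyrosine hydroxylase, which makes the dopamine precursor, had a mean signal of 13.9 in both lines, and Slc6a3, the dopamine transporter, 14.5 in HAD2 and 14.4 in LAD2. The array from HAD2 5 correlated least with its line, at a mean of 0.9922 against 0.993 to 0.9951 for the other HAD2 arrays and 0.9941 to 0.9954 for LAD2. It also had the lowest Th signal, 13.3 against 13.8 to 14.2 in the other HAD2 rats. Without it, 864 probe sets were called (505 higher and 359 lower), 710 of the 778 calls were kept and 0 of those turned sign. No difference between the lines passed 2-sided exact permutation tests, adjusted over 5 measures, of the median signal, the interquartile range, the correlation with the line and the 3'-minus-5' signals of the Gapdh and actin controls (adjusted p 0.323 for the correlation and 0.367 for the others). The values had been normalized by quantiles, which brings medians and interquartile ranges close, so the tests of these say little about the arrays. The Gapdh signal difference was 3.42 ± 0.31 in HAD2 and 3.58 ± 0.38 in LAD2 (mean ± SD). In tissue of mixed cells, fewer cells of a type and less RNA per cell cannot be told apart.

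The 2 largest differences higher in HAD2 lay in an antiviral gene and an antigen presentation gene. Mx2 encodes an interferon-induced dynamin-like GTPase with antiviral activity, RT1-T24-4 a class I molecule of the rat major histocompatibility complex (MHC), Ifi27 an interferon-induced membrane protein, and Irgm an immunity-related GTPase. Interferons bind cell surface receptors, and the STAT and IRF transcription factors that follow bind promoters at an interferon-stimulated response element. RT1 genes have near-identical copies, so the copy that gave the signal is uncertain for each of them.

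Mx2 gave log2 signals of 7.70, 8.53 and 9.13 (lowest, median and highest of 8 HAD2 rats) and of 4.53, 4.88 and 5.42 in the 9 LAD2 rats. Every HAD2 rat was above every LAD2 rat by more than the spread within either line. The difference was 3.56 ± 0.16 (log2 ± standard error, 11.8-fold, adjusted p = 1.2e-11). The other Mx2 probe set differed by 0.07 ± 0.14 (adjusted p = 0.908, means 7.29 and 7.21). The large difference was seen at 1 of the 2 probe sets for Mx2.

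RT1-T24-4 had signals of 9.15, 9.47 and 9.76 in HAD2 (lowest, median, highest) and 5.68, 5.85 and 6.4 in LAD2, with no overlap. It was 3.54 ± 0.10 higher in HAD2 (adjusted p = 1.8e-14). Ifi27 stood at 10.7, 10.8 and 11.4 in HAD2 and 9.13, 9.45 and 9.88 in LAD2, again without overlap, a difference of 1.41 ± 0.11 (adjusted p = 3.47e-08). Irgm was at 6.98, 7.51 and 7.76 in HAD2 and at 6.4, 6.56 and 6.91 in LAD2. These groups lay side by side without overlap, and Irgm was 0.86 ± 0.11 higher (adjusted p = 5.59e-05).

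RT1-S3, a nonclassical MHC class I gene, had all 4 of its probe sets called higher in HAD2. They differed by 1.14 ± 0.09, 1.04 ± 0.11, 0.64 ± 0.12 and 0.47 ± 0.07, and 3 of the 4 did not overlap between lines. The probe set with the largest difference ran from 9.18 to 9.82 in HAD2 and from 7.97 to 8.73 in LAD2 (adjusted p = 1.05e-07). The immunoproteasome subunits Psmb8 and Psmb9, which cut proteins into peptides for class I molecules, were 0.54 ± 0.10 and 0.34 ± 0.08 higher (adjusted p = 0.00336 and 0.0132), and both overlapped between lines.

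Not all of these genes moved one way. Of 26 measured genes of class I presentation, 5 were called higher and 2 lower in HAD2, 26.9% against 5.00% of all genes. The 2 lower genes of the list were the class I genes RT1-CE5 (a difference of -0.64 ± 0.08, without overlap) and RT1-CE10 (-0.23 ± 0.06). RT1-CE5 was called at 1 probe set, and its others differed by -0.043 to 0.062 and were not called. RT1-A3, a class I gene outside the list, was also called lower (-0.32 ± 0.06, adjusted p = 0.00221). RT1-CE16 was 0.74 ± 0.19 higher (adjusted p = 0.0281). The RT1-CE16 call was lost on leaving out any of 7 arrays (HAD2 2, 6, 7, 9 and 10, LAD2 14 and 15), with an adjusted p of up to 0.0644. The median difference over the list's probe sets was 0.03, against 0.0029 over all probe sets. Of 34 measured interferon response genes, 3 were called higher (Mx2, Ifi27 and Irgm) and 0 lower, 8.82% of the list, and the list's median was 0.05.

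In the class II genes, whose products present peptides to helper T cells, 2 of 13 were called higher and 2 lower (30.8% of the list, against 5.00% of all genes). RT1-Bb, a class II beta chain, was at 5.33 to 5.88 in HAD2 and 6.17 to 6.44 in LAD2 at one probe set. The difference there was -0.72 ± 0.07 (adjusted p = 1.22e-06). The other RT1-Bb probe set, with means of 4.73 and 4.72, differed by 0.0073 (adjusted p = 0.981). The peptide-loading chains went opposite ways, RT1-DMa with a difference of 0.29 ± 0.06 and RT1-DMb with -0.30 ± 0.08. The RT1-DMb call was lost on leaving out any of 11 arrays (HAD2 2, 3, 5 and 6, LAD2 12, 14, 15, 17, 18, 19 and 20, adjusted p up to 0.0875), including HAD2 5 (0.0615). The fourth call, RT1-Db1 (0.62 ± 0.16), was lost without any of 11 arrays (HAD2 2, 3, 6, 8 and 10, LAD2 11, 14, 15, 17, 19 and 20, adjusted p up to 0.0692). With all 91 arrays in 1 limma fit neither RT1-Db1 nor RT1-DMb was called (adjusted p = 0.512 and 0.226). HAD2 5 had the highest RT1-Db1 signal, 6.81 against at most 5.83 in the other HAD2 rats, and without it the difference was 0.46 with an adjusted p of 0.0133. The other RT1-Db1 probe set, with means of 4.23 and 4.22, differed by 0.0075 (adjusted p = 0.975). The mean signal of the list lay between 7.52 and 7.72 on all 17 arrays. The microglia list had 1 of 22 genes called higher and 1 lower (9.09%, against 5.00% of all genes). Its mean signal ran from 7.76 to 8.21 in HAD2 and 7.85 to 8.06 in LAD2. The part of microglia in these differences was not tested.

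The reference promoters of these genes are printed because the interferon-stimulated genes share a short element that the eye can find. They come from RefSeq (GRCr8) and run from 250 bases before to 50 bases after the gene's start, and the capitals mark matches to GAAANNGAAA, the core of the interferon-stimulated response element, searched on both strands. They are the 4 with a match among the promoters in the table of the genes above that were called higher, and Mx2 has no entry there.
Ifi27, chr6:128355062-128355361 (plus strand): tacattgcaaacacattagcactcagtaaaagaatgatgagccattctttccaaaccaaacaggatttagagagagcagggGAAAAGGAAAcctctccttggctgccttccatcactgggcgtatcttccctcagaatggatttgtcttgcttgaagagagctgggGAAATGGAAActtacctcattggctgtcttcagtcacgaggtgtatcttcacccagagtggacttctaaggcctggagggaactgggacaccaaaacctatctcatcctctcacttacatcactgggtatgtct
Irgm, chr10:33742529-33742828 (minus strand): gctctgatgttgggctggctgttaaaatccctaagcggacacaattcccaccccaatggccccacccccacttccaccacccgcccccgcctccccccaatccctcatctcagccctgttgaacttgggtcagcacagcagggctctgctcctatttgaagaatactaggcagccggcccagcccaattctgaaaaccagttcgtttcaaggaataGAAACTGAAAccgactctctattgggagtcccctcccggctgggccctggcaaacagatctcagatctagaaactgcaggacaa
Psmb8, chr20:4656982-4657281 (minus strand): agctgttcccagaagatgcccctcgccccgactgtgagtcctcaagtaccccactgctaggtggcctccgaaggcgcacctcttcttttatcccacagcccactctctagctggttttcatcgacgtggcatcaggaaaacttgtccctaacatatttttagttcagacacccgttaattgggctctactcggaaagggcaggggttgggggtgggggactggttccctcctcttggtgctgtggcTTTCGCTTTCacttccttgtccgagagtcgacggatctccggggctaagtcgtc
RT1-S3, chr20:2675278-2675577 (plus strand): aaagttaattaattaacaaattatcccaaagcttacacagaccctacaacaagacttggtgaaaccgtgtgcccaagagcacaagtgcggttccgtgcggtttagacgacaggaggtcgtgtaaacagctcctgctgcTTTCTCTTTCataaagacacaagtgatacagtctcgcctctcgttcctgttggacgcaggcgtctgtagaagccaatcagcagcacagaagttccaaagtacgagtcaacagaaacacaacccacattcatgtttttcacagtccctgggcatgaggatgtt

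Ifi27 held 2 matches and the others 1 each, and in Psmb8 and RT1-S3 the match read on the opposite strand, as TTTCNNTTTC. The promoters of RT1-T24-4, RT1-CE16 and Psmb9 held none in this window. The letters occur in 3.77% of the 27457 promoters in the table and in 2.99% of the 11700 promoters of measured genes. They occurred in 17 of 319 promoters of genes called higher in HAD2 (5.33%) and in 6 of 274 of genes called lower. Within the interferon response and class I lists the element was found in 4 of 7 promoters of genes called higher (57.1%) and in 23 of 42 of the others (54.8%). A match is a description of the reference sequence and says nothing of binding in these rats.

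**Figure D2:**
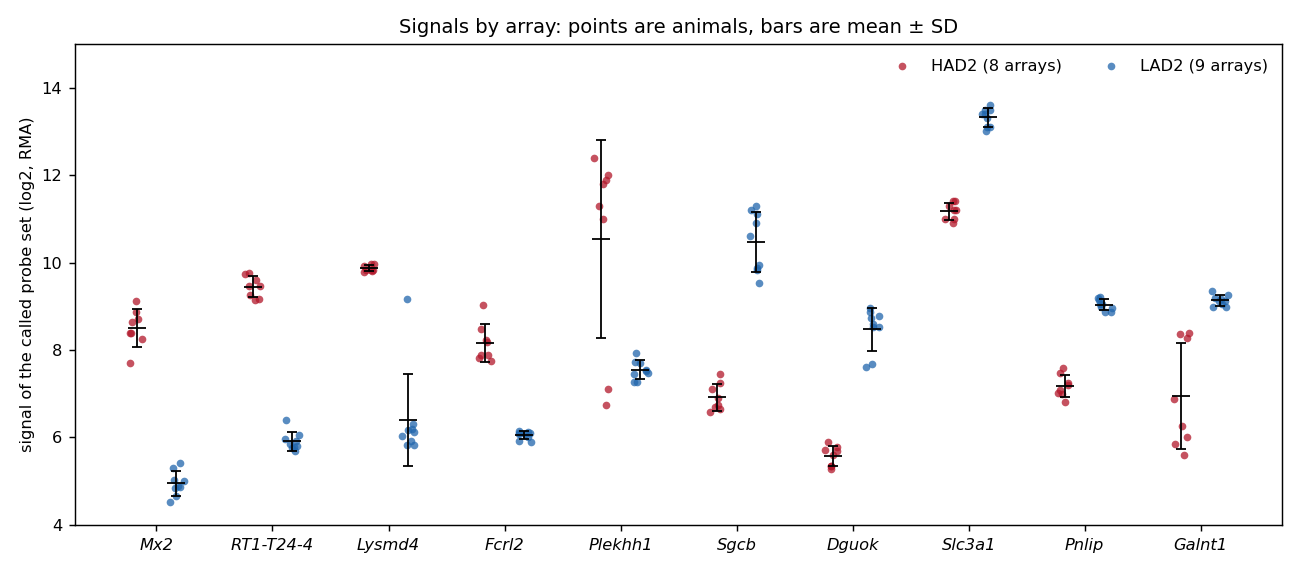
Log2 signals of 1 called probe set per gene are plotted for each HAD2 rat (red, 8) and LAD2 rat (blue, 9), with bars for mean ± SD. In every gene but Plekhh1 all HAD2 rats lie on one side of all LAD2 rats, and for Plekhh1 2 HAD2 rats lie below all LAD2 rats (6.74 and 7.12), LAD2 13 stands apart for Lysmd4 (9.17) and HAD2 spans 5.59 to 8.39 for Galnt1.

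Other large differences higher in HAD2 belonged to genes of varied function. Fcrl2, an Fc receptor-like molecule of immune cells, ran from 7.76 to 9.02 (median 8.03) in HAD2 and from 5.90 to 6.15 (median 6.08) in LAD2. The lines did not overlap, and Fcrl2 was 4.3-fold higher (adjusted p = 1.77e-09). Ctdspl, a small phosphatase that acts on RNA polymerase II, was 2.1 ± 0.07 higher, Kif15, a mitotic kinesin, 1.61 ± 0.11, and Pank3, a pantothenate kinase of coenzyme A synthesis, 1.45 ± 0.11. Wtap, a subunit of the RNA methylation complex, was 2.62-fold higher (adjusted p = 1.15e-10) and the anoctamin Ano5 1.19 ± 0.11. None of these overlapped between lines. Krt6c, Gpatch11 and Ddx42 were 2.32-fold, 2.29-fold and 2.2-fold higher and did not overlap either. Ptprj, a receptor tyrosine phosphatase, was 1.54 ± 0.18 higher, with HAD2 from 10.4 to 10.9 and the LAD2 rats all below them, at a mean of 9.17 ± 0.53 (SD).

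Some of the largest means hid uneven groups. Plekhh1 had a mean difference of 2.99 ± 0.67 (adjusted p = 0.0117), but the HAD2 rats 2 and 7 read 7.12 and 6.74, both below the LAD2 range of 7.26 to 7.94, and the other 6 read 11 to 12.4. Lysmd4, a LysM domain gene, read 9.79 to 9.97 in HAD2 and 5.82 to 6.31 in 8 LAD2 rats, and LAD2 13 read 9.17. Its difference was 3.47 ± 0.33 (adjusted p = 9.2e-07). Grifin, a lens galectin-related gene, was 1.84 ± 0.31 higher (adjusted p = 0.00101) with overlapping ranges, 8.73 to 11.6 in HAD2 and 7.70 to 9.10 in LAD2. Anapc10, a subunit of the anaphase-promoting complex, was 1.55 ± 0.32 higher (adjusted p = 0.00545), and the cell cycle factor E2f2 was 1.07 ± 0.23 higher (0.00942), both with overlap. HAD2 2 had the lowest Anapc10 signal of its line (6.93, the others 8.50 to 9.73), and LAD2 20 the highest of its line (8.78, the others 6.71 to 7.29).

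Among the genes lower in HAD2, Sgcb, a sarcoglycan of the dystrophin complex, had the largest difference. It ran from 6.58 to 7.45 (median 6.83) in HAD2 and from 9.54 to 11.3 (median 10.6) in LAD2, a difference of -3.55 ± 0.23 (adjusted p = 3.95e-09). Dguok, the mitochondrial deoxyguanosine kinase, read 5.28 to 5.90 in HAD2 and 7.61 to 8.96 in LAD2 and differed by -2.89 ± 0.17 (adjusted p = 8.21e-10). Sppl2a, an intramembrane protease, differed by -2.35 ± 0.12. None of these groups overlapped.

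Slc3a1, the heavy subunit of a transporter for cystine and dibasic amino acids, had bright signals in both lines. They were 10.9, 11.2 and 11.4 (lowest, median, highest) in HAD2 and 13, 13.4 and 13.6 in LAD2, a difference of -2.13 ± 0.095 (4.39-fold, adjusted p = 1.2e-11). Pnlip, pancreatic lipase, read 6.82 to 7.59 in HAD2 and 8.88 to 9.22 in LAD2, -1.86 ± 0.09 (adjusted p = 4.38e-11). Siglec5, a sialic acid-binding lectin of myeloid cells, read 5.15 to 6.50 in HAD2 and 7.11 to 7.89 in LAD2, -1.93 ± 0.17 (adjusted p = 2.15e-07). Each of these 3 genes is read by 1 probe set, and none overlapped between lines.

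Further large differences lower in HAD2 lay in genes of varied function. Ythdf2, which binds methylated RNA, differed by -2.06 ± 0.13 at one probe set and by -0.55 ± 0.07 at its other. Elavl1, an RNA-stabilising protein, differed by -1.84 ± 0.08 and -0.47 ± 0.06 at 2 probe sets and by 0.06 ± 0.07 at the third. Map2, the dendritic microtubule-associated protein, differed by -1.98 ± 0.23 (adjusted p = 1.26e-05) at a probe set with means of 8.43 and 10.4. Its other and brighter probe set, 13.4 in both lines, differed by 0.0084 ± 0.044. Galnt1, a mucin-type glycosyltransferase, differed by -2.18 ± 0.36 and spread over 5.59 to 8.39 in HAD2 against 8.98 to 9.36 in LAD2. At 1 probe set each, Rab22a and Paqr8 differed by -1.68 ± 0.06 and -1.51 ± 0.18, Crebl2 by -1.60 ± 0.30 and Tiparp by -1.48 ± 0.26. Another probe set of Rab22a and of Crebl2 was called higher in HAD2 without overlap (0.35 ± 0.045 and 0.36 ± 0.062). The brightest probe sets of Paqr8 and Tiparp differed by 0.03 ± 0.055 and -0.076 ± 0.06 and were not called. Lsg1 (-1.42 ± 0.39, adjusted p = 0.0497) lost its call on leaving out any of 12 arrays (HAD2 2, 8, 9 and 10, LAD2 11 to 14 and 17 to 20, adjusted p up to 0.11). Pakap (-1.41 ± 0.35, 0.0274) lost it without any of 7 (HAD2 8, 9 and 10, LAD2 12, 13, 18 and 19, up to 0.0554).

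Whether the probe sets of one gene agreed bears on what these values measure. Of 334 genes with several probe sets and at least 1 call, 39 had a further probe set called the same way, 17 had calls in both directions and 278 had 1 call alone. Of the genes with a call of at least 2-fold, 40 had further probe sets, 74 in all beside the one with the largest call. In the direction of that call the 74 differed by a median of 0.0182, and 49 lay within 0.25 of no difference. Only RT1-S3 had a further probe set that differed by at least 1 in the same direction. The table therefore does not show these large differences for the RNA of each gene as a whole. The probe sequences were not used here, so whether a probe set reads the RNA of both lines equally well was not tested.

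The 17 genes with calls in both directions show this most plainly. Sgcb differed by -3.55 at one probe set and by 0.39 and 0.55 at the other 2, whose means were 10.4 and 10.1 and 8.87 and 8.32 in HAD2 and LAD2. For Lysmd4 the 3 other probe sets were called lower in HAD2, with differences of -1.03 ± 0.09, -0.86 ± 0.075 and -1.70 ± 0.09, against 3.47 higher at the first. Dguok, Sppl2a, Hspa9, Trak2, Isca1, Ptprj, Wtap and Ctdspl each had a large difference at 1 probe set and no other probe set called. The same held for Galnt1, Ddx42, Anapc10, Lsg1 and Pakap.

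**Figure D3:**
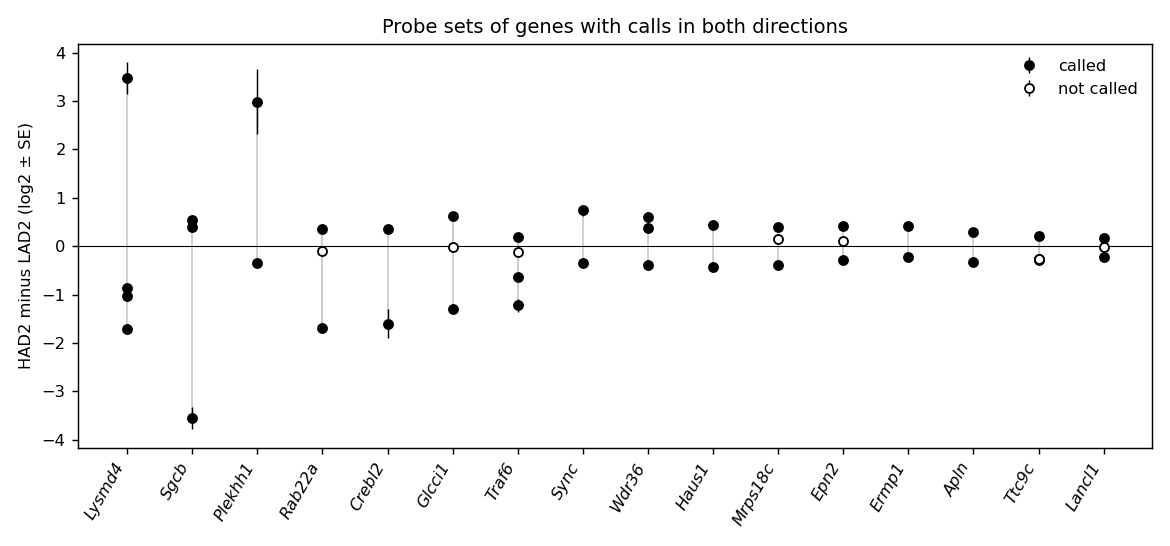
Each column is 1 gene, for 16 of the 17 genes with probe sets called in both directions, and each point is a probe set's HAD2 minus LAD2 difference (log2 ± standard error; filled, called; open, not called). Lysmd4 spans -1.70 to 3.47, Sgcb -3.55 to 0.55 and Plekhh1 -0.34 to 2.99, and the other genes span less.

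The dopamine neuron genes showed no called difference. Of 22 measured genes with 34 probe sets, 0 were called with limma, also without HAD2 5, against 5.00% of all genes. An unadjusted p under 0.05 was found at 2 of the 34 probe sets (5.88%), against 12.9% of all probe sets. The median difference was 0.08. Th read 13.3, 14 and 14.2 in HAD2 and 13.5, 13.9 and 14 in LAD2 (lowest, median, highest), a difference of 0.08 ± 0.10 (adjusted p = 0.852). Slc6a3 differed by 0.08 ± 0.08 (0.792), Slc18a2, the vesicular monoamine transporter, by 0.21 ± 0.14 (0.632) and Ddc, the decarboxylase that makes dopamine, by 0.13 ± 0.17 (0.852). HAD2 5 had the lowest HAD2 signal in all 4. Without it the 4 differences were 0.17, 0.14, 0.32 and 0.29, with adjusted p of 0.28, 0.317, 0.175 and 0.179. At 3 of the 34 probe sets the HAD2/LAD2 difference departed from that of HAD1/LAD1, against 3.49% of all probe sets. They read Ddc (0.82 ± 0.23, adjusted p = 0.0419, with -0.69 in HAD1 minus LAD1), Slc18a2 at another probe set (0.58 in HAD2 minus LAD2 and -0.71 in HAD1 minus LAD1, adjusted p = 0.00657 for the departure) and the nicotinic receptor subunit Chrnb3 (0.39, 0.0234). The other Ddc probe set did not differ between pairs (-0.19, adjusted p = 0.864). Neither did the brightest Slc18a2 probe set (0.21, 0.768) or its remaining one (0.86, 0.0972). The list's mean signal was 9.81 in HAD2 and 9.73 in LAD2, with the lowest arrays at 9.38 and 9.37.

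Of 39 measured glutamate receptor and scaffold genes, 1 was called higher and 1 lower (5.13%, against 5.00% of all genes), and 3 higher and 1 lower without HAD2 5. Grm5, the metabotropic receptor mGluR5, read 5.79, 5.93 and 6.33 in HAD2 and 6.54, 7.38 and 8.30 in LAD2, a difference of -1.43 ± 0.20 without overlap (adjusted p = 0.000153), and its second probe set was called the same way at -0.28 ± 0.07. Grin3a, an NMDA receptor subunit that lowers calcium entry, was 0.86 ± 0.14 higher and did not overlap (adjusted p = 0.000808). HAD2 2 had the highest Grin3a signal, 8.25 against 7.33 to 7.73. In glutamate transport 2 of 15 genes were called higher (13.3%) and 0 lower. Slc1a3, the glial glutamate transporter, was 0.58 ± 0.07 higher at 1 of its 3 probe sets (6.96 to 7.53 against 6.53 to 6.89). Its brightest probe set, at a mean of 13.4 in both lines, differed by -0.033 (adjusted p = 0.915) and the third by 0.15 (0.683). Slc38a1, a neuronal glutamine transporter, was 0.54 ± 0.07 and 0.20 ± 0.04 higher at 2 of 3 probe sets. None of the 3 called probe sets of Slc1a3 and Slc38a1 overlapped between lines.

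Of 34 measured chaperone genes, 4 were higher and 1 lower in HAD2 (14.7% against 5.00% of all genes, median difference 0.04), and 3 higher and 1 lower without HAD2 5. Hspa1a, the inducible Hsp70, read 9.15, 9.52 and 10.8 in HAD2 and 8.62, 8.94 and 9.08 in LAD2, 0.78 ± 0.16 higher without overlap (adjusted p = 0.00648). The highest value was from HAD2 5, and without that rat the difference was 0.61 with an adjusted p of 0.000294. Hspb1, a small heat shock protein, was 0.50 ± 0.11 higher (adjusted p = 0.00927) and also highest in HAD2 5 (8.13). Hsf1, the factor that switches these genes on, was 0.30 ± 0.08 higher (adjusted p = 0.026), a call lost without HAD2 6 or 9 or LAD2 14 or 19 (up to 0.0554). Dnajb4 (0.18 ± 0.05, adjusted p = 0.0436) lost its call without any of 12 arrays, all but HAD2 2 and LAD2 12, 14, 17 and 18 (up to 0.0894, and 0.0712 without HAD2 5). Hspa9, the mitochondrial Hsp70, differed by -1.47 ± 0.09 at 1 of its 4 probe sets, and the other 3 were at 0.29, 0.04 and -0.03.

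Of 26 measured genes of endothelium and pericytes, the cells of brain capillaries, 4 were called higher and 1 lower (19.2% against 5.00% of all genes), and 5 higher and 2 lower without HAD2 5. The efflux pump Abcb1a was 0.60 ± 0.12 higher (8.92 to 9.33 against 8.06 to 9.19, overlapping), the potassium channel regulator Abcc9 0.44 ± 0.07, vitronectin (Vtn) 0.41 ± 0.07 and Rgs5, a pericyte regulator of G protein signalling, 0.35 ± 0.05 higher. Abcc9, Vtn and Rgs5 did not overlap between lines. Abcb1a and Abcc9 were each called at 1 probe set and not at their others. Tek, the endothelial receptor for angiopoietin, differed by -0.37 ± 0.07. The list's mean was 8.21 in HAD2 and 8.16 in LAD2, and its median difference was -0.0053. Its part in other results was not tested.

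Purine receptors of microglia included P2ry12, which senses ADP and guides microglial processes, with both probe sets called higher (0.53 ± 0.08 and 0.54 ± 0.12). In the purine list 2 of 24 genes were higher and 1 lower (12.5%): P2ry2 differed by -0.34 ± 0.06, and the P2ry14 call (0.39 ± 0.10, adjusted p = 0.037) was lost without any of 10 arrays (HAD2 3, 6, 8, 9 and 10, LAD2 11 to 15, up to 0.0834). Of 22 microglia genes only P2ry12 and Siglec5 were called, in opposite directions (9.09%). Of 16 astrocyte genes 2 were called (12.5% against 5.00% of all genes), each at 1 probe set: Slc1a3 higher, as above, and the urea transporter Slc14a1 lower, by -0.72 ± 0.10 without overlap. The other Slc14a1 probe set differed by -0.031 (adjusted p = 0.943). In myelin 1 of 22 was called (4.55%), Opalin at -0.33 ± 0.08 (adjusted p = 0.0156).

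In the glutathione and antioxidant list 1 of 37 was called higher and 3 lower (10.8% against 5.00% of all genes), and 2 higher and 3 lower without HAD2 5. Gsta4, Gsto1 and Mgst2, which conjugate or reduce with glutathione, differed by -0.34 to -0.39, and Gstm5 by 0.21, with adjusted p from 0.024 to 0.0389. All 4 calls depended on single arrays: Gstm5 was lost without any of 12 (all but HAD2 3, 5 and 10, LAD2 17 and 20, up to 0.0776), Gsto1 without any of 9 (HAD2 3, 7, 8, 9 and 10, LAD2 11, 15, 18 and 19, up to 0.0676), Gsta4 without any of 8 (HAD2 6 and 8, LAD2 11, 12, 14, 17, 19 and 20, up to 0.0647) and Mgst2 without HAD2 3, 7, 8 or 9 (up to 0.0538). In mitochondrial trafficking and the respiratory chain 2 of 38 were called, both lower (5.26%), the transport adaptor Trak2 (-1.45 ± 0.15) and the iron-sulfur assembly gene Isca1 (-1.39 ± 0.15), both without overlap. In potassium and HCN channels 1 of 45 was higher and 1 lower (4.44%, against 5.00% of all genes), and 3 higher and 1 lower without HAD2 5. Kcnip3 was 0.28 ± 0.07 higher, and Kcnd2, the A-type channel of dendrites, differed by -0.42 ± 0.11 (adjusted p = 0.036), a call lost without any of 9 arrays (HAD2 3, 7, 8, 9 and 10, LAD2 11, 13, 15 and 18, up to 0.0781). In cyclic AMP signalling 1 of 34 was called (2.94%), Adcy9, an adenylyl cyclase, 0.52 ± 0.07 higher without overlap.

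No gene was called among 25 of GABA receptors and GABA neurons, 36 of opioid, CRF, NPY and other neuropeptides, 19 of ethanol and aldehyde metabolism, 19 immediate early, 30 of synaptic vesicles and release, 10 of choroid plexus and ependyma, 19 of neighbouring brain regions, 5 of blood and 3 of the sex chromosomes. In these 9 lists 17 of 250 probe sets had an unadjusted p under 0.05 (6.8%), against 12.9% of all probe sets. Their median differences lay between -0.04 and 0.02. In meninges and fibroblasts 1 of 17 was called (5.88%, against 5.00% of all genes), Slc13a3 (-0.33 ± 0.08). The Slc13a3 call was lost without any of 9 arrays (HAD2 6, 7, 8 and 10, LAD2 11, 12, 13, 15 and 19, up to 0.0652). Without HAD2 5 the GABA list had 1 gene called higher and 1 lower, the neuropeptides 1 higher and the synaptic vesicle list 1 lower.

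**Figure D4:**
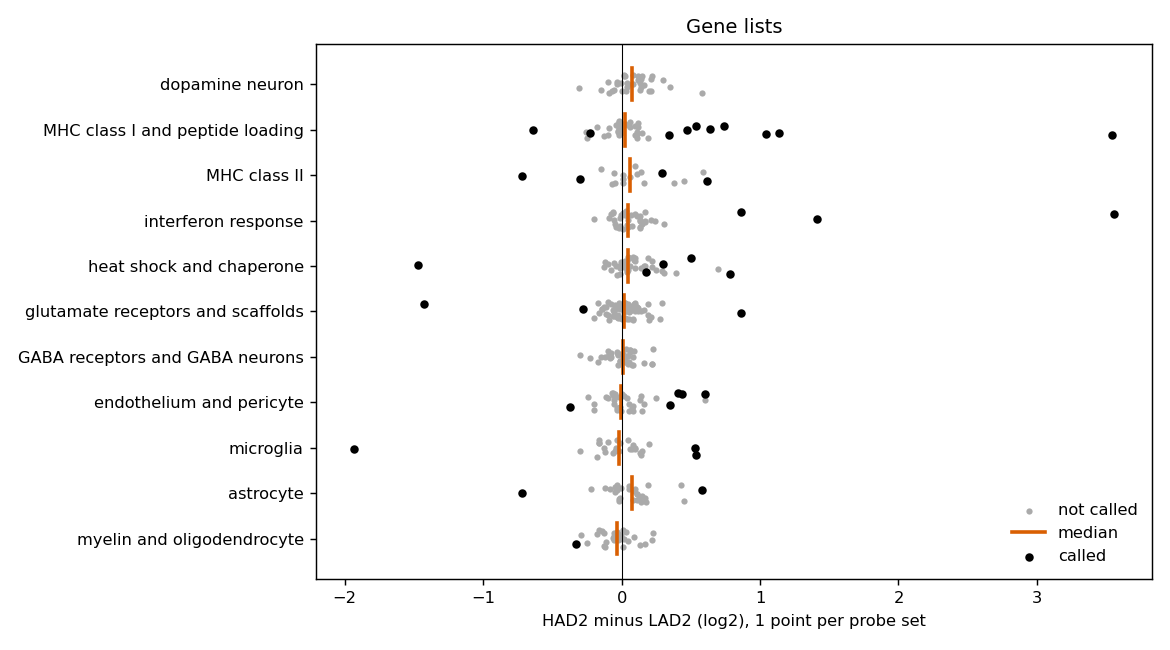
Each point is 1 probe set of a gene list, with its HAD2 minus LAD2 difference (log2) on the x axis (black, called; grey, not called; orange bar, median of the list). All medians lie near 0, the dopamine neuron and GABA lists hold no black point, and the points farthest to the right are Mx2 (3.56) and RT1-T24-4 (3.54).

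The HAD1 and LAD1 rats allow a test of where the HAD2/LAD2 difference departed from that of the replicate selection. Such a departure can arise in either pair, and differences in the other line pairs of the series were not compared. In a fit of all 35 arrays, the HAD2 minus LAD2 difference departed from the HAD1 minus LAD1 difference at 726 probe sets (3.49%), and 405 of the 778 HAD2/LAD2 calls were among them (52.1%). Fitted alone, HAD1/LAD1 had 509 calls (2.44%). The pairs shared 143 calls, which is 18.4% of the HAD2/LAD2 calls and 28.1% of the HAD1/LAD1 calls, 75 of them in the same direction (38 higher and 37 lower in both high-drinking lines) and 68 in opposite directions. Of the 63 calls of at least 2-fold, 40 differed between the pairs, 18 were called the same way in HAD1/LAD1 and 9 the opposite way. Those calls were chosen for their HAD2/LAD2 difference in the same arrays. This raises the 52.1% and the 40 of 63, so both are descriptions.

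Mx2 differed most between the pairs, by 6.38 ± 0.33 (adjusted p = 2.36e-16), where it was 3.56 higher in HAD2 than in LAD2 and -2.82 ± 0.26 in HAD1 minus LAD1. Sgcb (-3.55 and 1.49, a difference between pairs of -5.04 ± 0.57), Grifin (1.84 and -2.38), Elavl1 (-1.84 and 1.63), Galnt1 (-2.18 and 1.68), Crebl2 (-1.60 and 1.76), Ptprj (1.54 and -1.34) and Hspa9 (-1.47 and 1.0) also went opposite ways, and the HAD1/LAD1 difference was itself called for all of these but Sgcb (adjusted p = 0.121). Lysmd4 (3.47 and 0.04), Dguok (-2.89 and 0.16), Slc3a1 (-2.13 and -0.07), Pnlip (-1.86 and 0.16) and Siglec5 (-1.93 and 0.04) differed between the pairs, with HAD1/LAD1 near 0. For Pnlip the difference between the pairs was -2.02 ± 0.12 (adjusted p = 2.51e-14). Here and in the next paragraph each value is from the gene's probe set with the largest HAD2/LAD2 difference. Other probe sets of some of these genes were not called or were called the opposite way, as given above.

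Kif15 (1.61 and 1.65), Rab22a (-1.68 and -1.51), Paqr8 (-1.51 and -1.43), Plekhh1 (2.99 and 3.94), Ifi27 (1.41 and 0.89), RT1-S3 (1.14 and 0.85) and RT1-Bb (-0.72 and -0.74) were called the same way in both pairs. Their differences between pairs were not called, which does not show that they were equal. For Kif15 it was -0.04 ± 0.28 (adjusted p = 0.988) and for Rab22a -0.17 ± 0.22 (0.877). Grm5, Slc1a3, Slc38a1, Grin3a, Abcc9, Vtn and Rgs5 did differ between pairs, with HAD1/LAD1 differences from -0.38 to 0.09 that were not called.

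**Figure D5:**
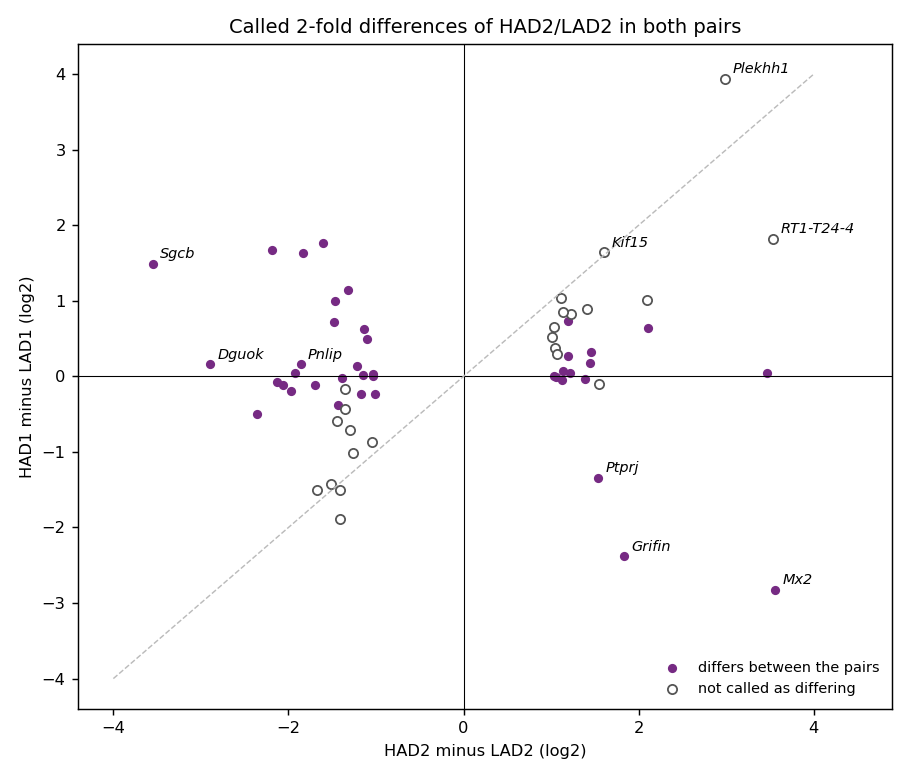
The 63 called HAD2/LAD2 differences of at least 2-fold are plotted with HAD2 minus LAD2 (log2) on the x axis and HAD1 minus LAD1 (log2) on the y axis, and the dashed line marks equal differences. The 40 filled points differ between the pairs, with Mx2 (3.56 and -2.82) at the lower right and Sgcb (-3.55 and 1.49) at the upper left, and of the open points Kif15 (1.61 and 1.65) lies near the line and Epb41l3 (-1.35 and -0.17) far from it.

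Placed in the gene order of the GRCr8 annotation, 135 of 710 called genes (19%) had a called gene as an immediate neighbour among the measured genes, compared with 1197 of 13451 genes that were not called (8.9%). No test was run on these shares. Without HAD2 5 the share was 19.6% of 796. There were 51 runs of 2 called neighbours and 11 runs of 3. The runs mixed directions: those that went 1 way were Ttc19, Ncor1 and Pigl, Pter, C1ql3 and Rsu1 (all lower in HAD2), RGD1309362, Ifgga2l1 and Smim3, and Rab14, Gsn and Stom (all higher). Rab14 was called at 1 dim probe set of 5 (0.41 ± 0.085, means 5.11 and 4.7), and the other 4 differed by -0.21 to 0.15 and were not called. The C1ql3 call was lost without any of 9 arrays (HAD2 3, 5, 6, 8, 9 and 10, LAD2 11, 12 and 13, adjusted p up to 0.0712, and 0.0513 without HAD2 5), the Gsn call without any of 8 (HAD2 2, 7, 8, 9 and 10, LAD2 11, 19 and 20, up to 0.0645) and the Stom call without any of 11 (HAD2 3, 6, 7, 8, 9 and 10, LAD2 11, 13, 15, 19 and 20, up to 0.0675).

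RGD1309362, which the annotation gives no common name, was at 6.49 to 7.27 in HAD2 and 5.4 to 5.65 in LAD2 (1.45 ± 0.08, adjusted p = 2.32e-10), and its neighbour Ifgga2l1, named for interferon gamma-inducible GTPases, was 0.65 ± 0.08 higher (adjusted p = 1.8e-05), both without overlap. In the run of Iftap, Traf6 and Prr5l, Iftap was 0.42 ± 0.05 higher. The immune signalling ligase Traf6 differed by -1.22 ± 0.14 and -0.64 ± 0.075 at 2 probe sets, was 0.20 ± 0.05 higher at its brightest (adjusted p = 0.0257) and differed by -0.12 at the fourth (0.501). Sppl2a (-2.35) stood beside Blvra (0.30) and Ncaph (0.97 ± 0.07), a condensin subunit. Ncor1, a nuclear receptor corepressor, differed by -1.27 ± 0.07 at 1 of 3 probe sets, and Ift140, a ciliary transport gene, by 0.68 ± 0.06. Beside Ift140 lay Telo2 (-0.27 ± 0.06) and Tmem204 (0.25 ± 0.06), whose call was lost without any of 7 arrays (HAD2 6, 9 and 10, LAD2 11, 15, 17 and 18, adjusted p up to 0.0636). In other runs, with the probe set of the largest difference given for each gene, the neighbours Hlf, a transcription factor gene, Tom1l1 and Tom1l3 differed by -0.39 ± 0.04, 0.34 ± 0.08 and -0.52 ± 0.08. The other Hlf probe sets differed by -0.18 to 0.073 and were not called. Ttc9c (-0.29 ± 0.07) lay beside Bscl2 (0.31 ± 0.06) and Gng3 (0.55 ± 0.085), and Txndc5 (0.40 ± 0.04) beside Bmp6 (-0.58 ± 0.11) and Snrnp48 (-0.51 ± 0.07). Ttc9c was called higher at its brightest probe set (0.22 ± 0.04) and differed by -0.26 to -0.29 at the others.

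Longer stretches with many calls were few. In windows of 20 measured genes with at least 8 called, 3 stretches stood out. The first, from Rpp38 to Commd3, had 10 of 20 genes called (50%), among them Hacd1 (0.72 ± 0.05, without overlap), the intermediate filament gene Vim (0.44 ± 0.11) and the integrin Itga8 (-0.63 ± 0.10). The second, from RT1-Db1 to Wdr46, lay in the MHC and held class II genes, with 8 of 19 called (42.1%). Among them were RT1-Bb, Psmb8, Psmb9, RT1-DMa, the class I gene RT1-A3 (-0.32 ± 0.06) and Wdr46 (0.44 ± 0.07). The third, from Fer to Tgif1, had 9 of 22 (40.9%), including Ankrd12 (0.82 ± 0.10) and Epb41l3, a membrane skeleton protein (-1.35 ± 0.24). Within each stretch genes were called in both directions, and these stretches were picked for their counts, so the counts are a description.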

How the data were processed

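Ventral tegmental area RNA of 17 rats, 8 HAD2 and 9 LAD2, was measured on 1 Affymetrix array per animal. Per the labels' protocols, RNA was amplified in a 2-cycle protocol and labelled with biotin. The deposited values are log2 signals that the authors made with RMA, per the submitters' processing notes. RMA corrects background, normalizes quantiles and combines the probes of each set. Which RMA version was used, and which arrays were normalized together, is not given in the sources used here. Differences in log2 signal are given for probe sets with 1 gene symbol in the platform annotation (20826 of 31099, with 436 naming several genes, 9780 none and 57 controls left out), of which 20758 had a gene ID in the GRCr8 annotation.

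No filter on dim probe sets was applied. The pair was fitted alone in limma (lmFit and eBayes, 15 residual and 4.15 prior degrees of freedom), 2-sided, with Benjamini-Hochberg adjustment over all 20826 probe sets, and was called at an adjusted p under 0.05. The difference between pairs used 35 arrays. Array measures were compared by exact permutation tests. Gene lists are described by counts and medians, with no set test, and neighbours by the gene order of GRCr8. The 17 arrays held 0 pairs with identical values (highest correlation 0.9968), and the number of arrays limits the precision.

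The members, gene lists and naming rule were chosen with earlier results of these data known. Named genes are the 20 highest and 20 lowest called genes, up to 6 called members per list, the 10 genes differing most between pairs, members of the longest runs of neighbours, and Th, Slc6a3, Slc18a2 and Ddc. Symbols starting with LOC, RGD, AABR or MGC were passed over among the highest and lowest. RT1-CE10, Hacd1, Vim, Itga8, Wdr46, Ankrd12 and Epb41l3 were named after their values were seen, and 1 gene that the rule names is not reported here. Alternatives were all 91 arrays in 1 fit, filters at the 40th (7.4) and 60th (8.965) percentile, quantile normalization, centring, a trend with robust prior, array weights, 1 probe set per gene, a Gapdh covariate and each array left out. The fit was tested on simulated data. Versions were limma 3.58.1 and the data.table package (1.17.8) in R 4.3.3, and matplotlib 3.10.9, scipy 1.17.1, pandas 2.3.3 and numpy 2.4.6 in Python 3.11.15.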

Additional observations from a re-analysis of the deposited data

Results flagged for a closer look

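The signals below each had 1 animal far from the others of its line, by Dixon's test at the 95% level, which chance alone meets in about 1 in 20 groups (16 of 214 groups of named genes here). HAD2 5 was the highest HAD2 rat for Hspa1a (10.8) and RT1-Db1 (6.81) and the lowest for Th (13.3) and Gsta4 (11). HAD2 2 was the highest for Grin3a (8.25) and the lowest for Anapc10 (6.93) and Dnajb4 (12.8), and HAD2 8 was the highest for Trak2 (12.4, the others 10.9 to 11.6). Among LAD2 rats, LAD2 13 was the highest for Lysmd4 (9.17), LAD2 20 the highest for Anapc10 (8.78) and Gstm5 (11.7) and the lowest for Slc18a2 (12.7, the others 13.2 to 13.6). LAD2 18 was the highest for Pank3 (6.94) and the lowest for Gng3 (10.1), LAD2 19 the highest for Ttc19 (10.6) and LAD2 15 the lowest for Lsg1 (9.56). Of all 778 called probe sets, HAD2 5 and LAD2 20 each stood apart in 12 (1.54%), the most of any array, and HAD2 10 in 0.

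The HAD2 minus LAD2 difference departed from the HAD1 minus LAD1 difference, tested in 1 limma fit of 35 arrays, for 56 of the named genes (adjusted p from 2.36e-16 to 0.0449). Most named genes were picked for differences in these same arrays, some of them for this departure, so the count is a description. The numbers in brackets are the HAD2/LAD2 minus the HAD1/LAD1 difference on the log2 scale. In 36 of the 56 the 2 pairs had opposite signs, and the HAD1/LAD1 difference was itself called in 12 of the 36 and not called in the other 24. Those with the larger value in HAD2/LAD2 were Mx2 (6.38), Grifin (4.22), Ptprj (2.88), Wtap (1.42), Irgm (0.98), Grin3a (1.24), Abcb1a (1.12), Abcc9 (0.49), Vtn (0.44), Ddc (0.82), Bscl2 (0.36), Txndc5 (0.59), Smim3 (0.60), Rab14 (0.99), Gsn (1.2), Stom (0.71) and Iftap (0.48). Those with the smaller value were Sgcb (-5.04), Dguok (-3.05), Galnt1 (-3.86), Siglec5 (-1.97), Pnlip (-2.02), Elavl1 (-3.47), Crebl2 (-3.36), Tiparp (-2.2), Hspa9 (-2.46), Mgst2 (-0.52), Kcnd2 (-0.64), Slc14a1 (-0.75), Tek (-0.76), Bmp6 (-1.41), Snrnp48 (-0.83), Pter (-0.58), Rsu1 (-0.53), Traf6 (-1.36) and Prr5l (-0.88). In the other 20 both pairs had the same sign. The value was larger in HAD2/LAD2 for Lysmd4 (3.42), Fcrl2 (1.47), Pank3 (1.14), Krt6c (1.16), Gpatch11 (0.47), Ano5 (0.92), Ddx42 (1.07), Slc1a3 (0.49), Slc38a1 (0.47), Gsta4 (0.62), Rgs5 (0.29), Tom1l3 (0.69) and RGD1309362 (1.265), and smaller for Sppl2a (-1.86), Slc3a1 (-2.06), Ythdf2 (-1.94), Map2 (-1.79), Grm5 (-1.06), Isca1 (-1.36) and RT1-CE5 (-0.54). Gsta4 and Tom1l3 were lower in both high-drinking lines and more so in HAD1. Ddc is the only one of these not called in HAD2/LAD2.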

How the results depend on the processing

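No paired analysis was possible because the HAD2 and LAD2 animals share no numbers in the labels. Of the counts, the filter at the 60th percentile gave 472 called probe sets (778 without a filter), 87 at 1.5-fold (172), 155 without overlap (254) and 455 differing between the pairs (726), since it tests fewer probe sets. With 1 probe set per gene, 108 were called at 1.5-fold. No result reversed. Leaving out each array in turn gave 638 to 864 calls, 159 to 185 at 1.5-fold, 264 to 309 without overlap and 642 to 843 differing between the pairs. Without HAD2 5, 156 called genes had a called neighbour, against 135. In a fit of all 91 arrays, 609 of the 778 calls were made again. Of 103 named calls, 78 held under every alternative in which the probe set was tested, 18 were lost on leaving out some single array, as given beside their values, and the other 7 only with all 91 arrays in 1 fit: Grifin (adjusted p 0.0637), Psmb9 (0.192), Hspb1 (0.174), Kcnip3 (0.199), Tom1l1 (0.0559), Bmp6 (0.0771) and Rab14 (0.146). The share of calls higher in HAD2 was 50% after quantile normalization, 48.4% after centring and 57.9% with all 91 arrays. Signals near background limit the dim probe sets, since no detection calls were used here.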
